A study of Mus musculus with 10 samples.

Results

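The 10 serotonin receptor genes described here are Htr1a, Htr1b, Htr1d, Htr1f, Htr2a, Htr2b, Htr3a, Htr3b, Htr4 and Htr7. They were taken by gene symbol from the 45952 genes with an expression value, and the group holds the receptors that triptans act on. No expression threshold was used, but the group was chosen with earlier results of these data known. Sensory neurons were sorted from naïve Avil-EGFP mice (STOCK Tg(Avil-EGFP)QD84Gsat/Mmucd) on a CD1 background, age-matched adults of 3 to 6 months, and all groups carried the transgene. RNA was sequenced from lumbar dorsal root ganglia (DRG; 3 male and 3 female libraries) and from trigeminal ganglia (TG; 2 male and 2 female libraries). The transgene puts EGFP under the advillin promoter on a bacterial artificial chromosome, so the neurons measured are those that expressed it, survived dissociation and excluded propidium iodide in flow cytometry. The labels name satellite glial cells as a contaminant, and the dissociation favoured small and medium neurons. Each value is an FPKM, the fragments counted for a transcript, scaled by its length and by the size of the library, so levels of different genes are compared per length.

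Serotonin, or 5-HT, acts on sensory neurons through receptors of distinct kinds. The 5-HT3 receptor is a pentameric cation channel, for which Htr3a encodes the subunit that can form a channel by itself and Htr3b a subunit that needs it. All the other receptors signal through G proteins. Htr1a, Htr1b, Htr1d and Htr1f couple to Gi/o and lower cyclic AMP, Htr4 and Htr7 couple to Gs and raise it, and Htr2a and Htr2b couple to Gq and activate phospholipase C. Triptans, used in migraine, are agonists at the receptors of Htr1b and Htr1d, several of them also at that of Htr1f, and lasmiditan is selective for the latter. In trigeminal neurons these receptors are known for reducing the release of calcitonin gene-related peptide.

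Depth and cell type markers were checked first. Relative depth, read from the most frequent ratio between libraries among the lowest non-zero FPKM values, differed by at most a factor of 1.49. Of the 6 lumbar position genes (Hox genes of the trunk), 5 passed the test between ganglia, all higher in DRG (limma, adjusted p below 0.05), with summed levels of 71.3 to 159 FPKM in DRG and 0.173 to 0.616 FPKM in TG. The paper lists all 6 as exclusive to DRG from these same libraries, so this outcome was known beforehand. The 10 neuronal markers found in the tables summed to 6312 to 9277 FPKM in DRG and 6569 to 7554 FPKM in TG, and none was at 0. All 10 satellite glia markers were also detected, summing to 1630 to 5753 FPKM in DRG and 4277 to 5722 FPKM in TG. In DRG, 3 libraries stood apart, with a median rank correlation to the other libraries of 0.849 (male DRG replicate 3), 0.869 (female DRG replicate 1) and 0.895 (female DRG replicate 3), against at least 0.933 for the rest. Male DRG replicate 3 had the lowest level of Avil, the gene whose promoter drives the transgene (172 FPKM, against 555 or more elsewhere), and the highest of Fabp7, a satellite glia marker (1685 FPKM). Replicates of the same ganglion came from different mice, as far as the methods state, but the labels do not name the mouse of each library. The p-values measure the spread between these libraries. In the main tests, DRG and TG libraries were treated as independent. In bulk libraries, fewer cells with a transcript and less transcript per cell cannot be told apart.

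Htr3a was the serotonin receptor gene with the highest FPKM in every library. Htr1d was far above the other triptan targets except in male DRG replicate 3. There it was at 3.25 FPKM, with Htr1f at 2.25 and Htr1b at 2.18 FPKM. Over the 10 libraries the mean FPKM fell from Htr3a (97.0 ± 42.6 SD) through Htr1d (24.1 ± 9.69) and Htr3b (11.97 ± 5.83) to Htr4 (3.73 ± 1.58), Htr1b (2.86 ± 0.850), Htr1a (2.60 ± 1.38), Htr1f (2.14 ± 1.06), Htr7 (1.32 ± 0.894) and Htr2a (1.21 ± 0.876). Htr2b was listed at 0 in all 10 libraries. A gene was taken as detected where 2 or more libraries of the same ganglion reached an FPKM of 1, which was met by 12637 genes and by 9 of the 10 receptors, Htr2b being the exception. Among these 12637 genes, ranked by mean FPKM, Htr3a stood at percentile 91.6 in DRG and 89.8 in TG, and Htr1d at 73.7 and 74.4, whereas Htr7 stood at 18.1 and 5.52.

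Neighbours in this order were compared library by library on the log2(FPKM + 1) scale, as a description with no test. Htr3a exceeded Htr1d in 10 of 10 libraries, by 2.05 ± 1.41 (mean difference ± SD), and Htr3b exceeded Htr4 in 10 of 10, by 1.44 ± 0.66. Htr1d exceeded Htr3b in 8 of 10, by 0.87 ± 1.13, which is within the spread. From Htr4 down to Htr2a, no neighbouring pair differed by more than 1 SD over the 10 libraries, so the order of neighbours among these 6 genes was not resolved. Genes further apart in the order were not compared in this way. In TG alone the libraries were closer to each other, and Htr1d exceeded Htr3b in 4 of 4 by 1.33 ± 0.46, Htr3b exceeded Htr4 by 0.89 ± 0.27 and Htr4 exceeded Htr1b by 0.69 ± 0.30.

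**Figure D1:**
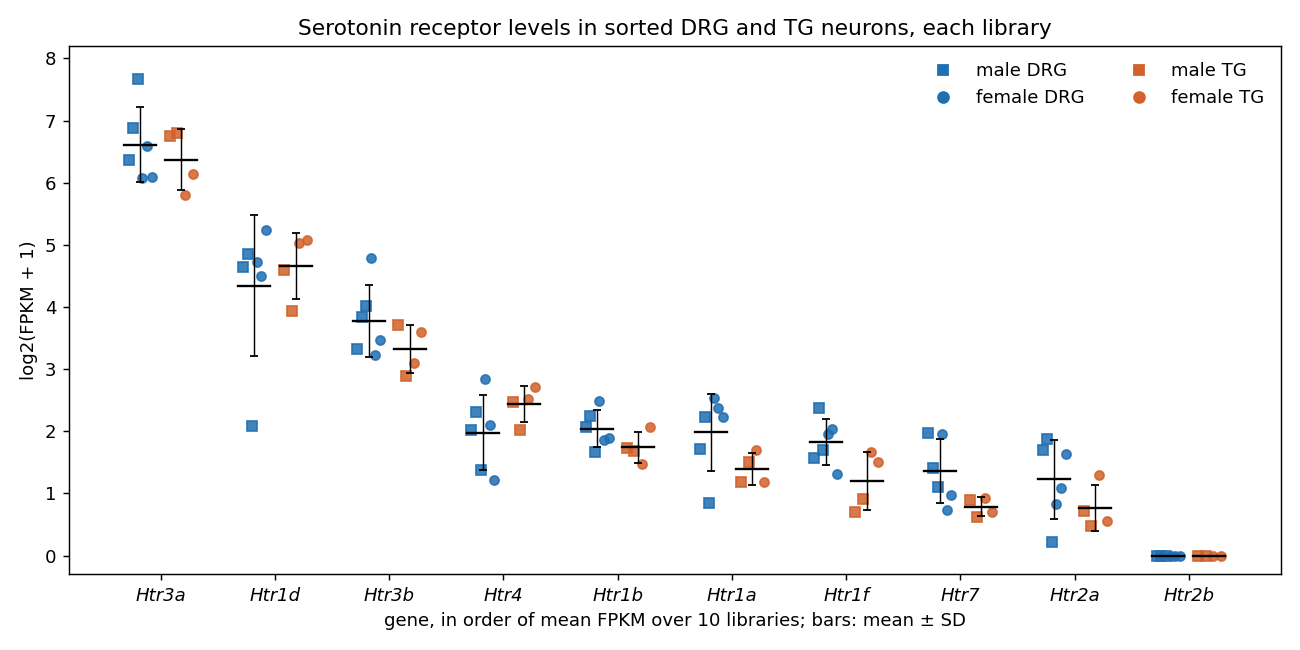
FPKM of the 10 serotonin receptor genes in each library, on the log2(FPKM + 1) scale, with DRG in blue, TG in orange, males as squares and females as circles; horizontal lines and bars are the mean ± SD of 6 DRG or 4 TG libraries. Htr3a is highest in every library, Htr2b is at 0 throughout, and for every detected receptor the DRG and TG points overlap.

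The channel subunits were led by Htr3a. Htr3a (ENSMUSG00000032269; GRCm38 9:48899213-48911099, minus strand) was measured at 81.2, 117 and 202 FPKM in male DRG, 66.2, 95.3 and 67.2 in female DRG, 107 and 111 in male TG, and 54.5 and 69.3 in female TG. Male DRG replicate 3 was the highest of all, male DRG replicate 2 was also above every TG library, and the other 4 DRG libraries lay in the range of the TG libraries. Htr3b (ENSMUSG00000008590; 9:48935008-48964990, minus strand) is the next gene, with 23908 bases and no annotated gene between. It was measured at 8.98, 13.3 and 15.1 FPKM in male DRG, 26.7, 8.39 and 10.1 in female DRG, 12.1 and 6.40 in male TG, and 7.59 and 11.1 in female TG, so the highest value, in female DRG replicate 1, belonged to a library in which Htr3a was low. Htr3a overlaps an antisense gene, Gm32335, and the library kit does not mark strand, so their reads cannot be told apart.

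Of the Gi/o-coupled receptors, Htr1d was the most abundant in every library. Htr1d (ENSMUSG00000070687; 4:136423524-136444398, plus strand) was measured at 24.1, 27.8 and 3.25 FPKM in male DRG, 25.4, 21.6 and 36.8 in female DRG, 23.3 and 14.3 in male TG, and 31.5 and 32.6 in female TG. Male DRG replicate 3 was the lowest by a wide margin, and the other 9 libraries spanned 14.3 to 36.8. Htr1b (ENSMUSG00000049511; 9:81628291-81633828, minus strand) lay between 2.18 and 4.61 FPKM in DRG (median 2.97) and was 2.31, 2.22, 1.78 and 3.20 FPKM in TG. It had the smallest coefficient of variation of the detected receptors in DRG (0.276), and it overlaps an antisense gene, D430036J16Rik, with the same limit on strand. Summed over Htr1b, Htr1d and Htr1f, the triptan targets reached 29.0 ± 11.5 FPKM in DRG (SD, n = 6) and 29.2 ± 9.32 FPKM in TG (SD, n = 4).

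Htr1f and Htr1a were below Htr1d in every library. Htr1f (ENSMUSG00000050783; 16:64924729-65105854, minus strand) was measured at 1.98, 4.18 and 2.25 FPKM in male DRG, 2.87, 3.11 and 1.49 in female DRG, 0.617 and 0.887 in male TG, and 2.17 and 1.85 in female TG. Both male TG libraries were below every DRG library, while both female TG libraries were within the DRG range. Htr1a (ENSMUSG00000021721; 13:105443639-105448122, plus strand), which is best known as an autoreceptor of serotonin neurons, lay between 0.806 and 4.77 FPKM in DRG (median 3.68) and was 1.26, 1.85, 2.24 and 1.28 FPKM in TG. Its lowest value was again in male DRG replicate 3, and 5 of 6 DRG libraries exceeded all TG libraries.

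The receptors that couple to Gs and Gq were near the detection limit except for Htr4. Htr4 (ENSMUSG00000026322) lay between 1.33 and 6.19 FPKM in DRG (median 3.16) and was 4.57, 3.06, 4.76 and 5.54 FPKM in TG, and it reached 1 FPKM in all 10 libraries. Htr7 (ENSMUSG00000024798; 19:35958734-36057507, minus strand) lay between 0.667 and 2.91 FPKM in DRG (median 1.41) and was 0.869, 0.538, 0.905 and 0.627 FPKM in TG. It reached 1 FPKM in 4 of 6 DRG libraries and in 0 of 4 TG libraries, and the groups overlapped. Htr2a (ENSMUSG00000034997; 14:74640840-74709494, plus strand) lay between 0.163 and 2.68 FPKM in DRG (median 1.62) and was 0.645, 0.396, 1.45 and 0.478 FPKM in TG. Htr2b (ENSMUSG00000026228; 1:86099026-86111970, minus strand) lies within Psmd1, which is on the opposite strand, and beside its FPKM of 0 the authors' mean normalised read count was 1.44.

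DRG and TG were then compared, to ask whether neurons of the head and of the body differ in these receptors. The median fitted difference of the 9 detected receptors was 0.45 on the log2(FPKM + 1) scale (DRG minus TG), beside -0.049 over all 12637 genes tested. Htr1f had the largest fitted difference, 2.65 ± 0.956 FPKM in DRG against 1.38 ± 0.746 FPKM in TG. No receptor passed the test across all genes (0 of 9; limma with Benjamini-Hochberg adjustment), in which 0.111% of the 12637 genes were called. At an unadjusted p below 0.05 there was 1 of 9, Htr1f, beside 6.35% of all genes, and the two-sided exact permutation test of ganglion labels also gave 1 of 9 at that level. That count rests on single libraries: it was 0 when male DRG replicate 1 or 2, female DRG replicate 1, male TG replicate 1 or 2, or female TG replicate 2 was left out, 2 without male DRG replicate 3, 3 without the libraries that stood apart and 4 with array weights. The fitted mean was higher in DRG for 7 of 9, beside 44.3% of all genes, and higher in TG for Htr4 and Htr1d. Of the 7, Htr7 and Htr2a passed the detection filter through DRG alone. Htr7 reached 1 FPKM in 4 DRG and 0 TG libraries, and Htr2a in 4 and 1. The filter therefore favoured DRG for these genes, both in this count and in the median difference. The libraries of DRG and TG overlapped for all 9, beside 1.95% of all genes whose libraries did not overlap.

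For Htr1f the fitted difference was 0.63 (95% interval 0.016 to 1.24), with p = 0.0452 and adjusted p = 0.772 by limma and p = 0.0476 by the two-sided exact permutation test, whose smallest possible p is 0.00476. Among males, all 3 DRG libraries were above both TG libraries, and among females the ganglia overlapped. The next were Htr1a, 3.23 ± 1.44 FPKM in DRG against 1.66 ± 0.473 FPKM in TG, with a difference of 0.59 (-0.055 to 1.24; limma adjusted p = 0.776), and Htr7, 1.71 ± 0.981 against 0.735 ± 0.180 FPKM, with a difference of 0.57 (-0.059 to 1.20; limma adjusted p = 0.784). The limma adjusted p of all 9 ranged from 0.772 to 0.899.

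The intervals say how large a difference these libraries leave room for. For Htr3a the difference was 0.24 (95% interval -0.31 to 0.79), from 105 ± 51.2 FPKM in DRG and 85.4 ± 27.8 FPKM in TG, and it was 0.084 without male DRG replicate 3, 0.38 without male DRG replicate 1 and 0.16 without female DRG replicate 2. For Htr1b it was 0.30 (-0.23 to 0.83), from 3.19 ± 0.881 and 2.38 ± 0.597 FPKM, and 0.18 without female TG replicate 1. The widest interval was that of Htr1d, -0.32 (-1.32 to 0.69), from 23.2 ± 11.1 and 25.4 ± 8.54 FPKM. Without male DRG replicate 3 the fitted difference of Htr1d turned to 0.094, so the direction rests on that library. For Htr3b it was 0.45 (-0.26 to 1.17), falling to 0.23 without female DRG replicate 1, the library with the highest Htr3b, and to 0.30 without male TG replicate 2. For Htr2a it was 0.46 (-0.29 to 1.22), and 0.31 without male DRG replicate 2. For Htr4 it was -0.46 (-1.16 to 0.25), and -0.26 without female DRG replicate 3. A difference of 1 on this scale towards DRG lay within the intervals of Htr1a, Htr1f, Htr2a, Htr3b and Htr7, a difference of 1 towards TG within those of Htr1d and Htr4, and neither within those of Htr3a and Htr1b.

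**Figure D2:**
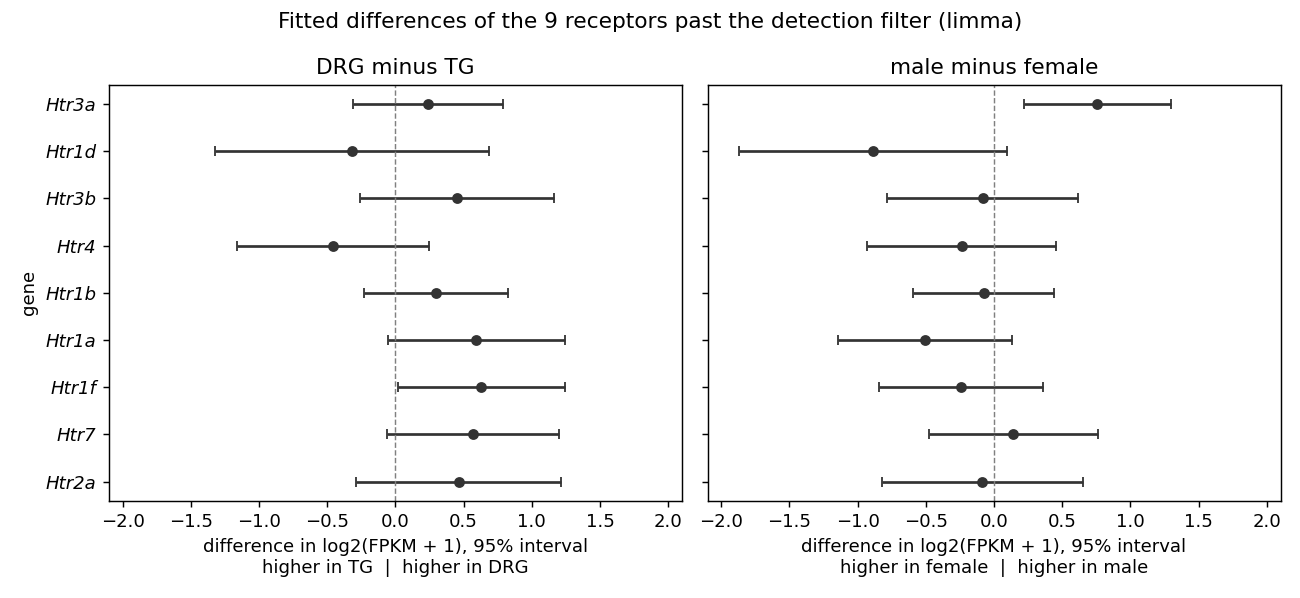
Fitted differences in log2(FPKM + 1) of the 9 detected receptors (limma), with 95% intervals, for DRG minus TG on the left and male minus female on the right; the dashed line marks no difference. On the left only the interval of Htr1f excludes 0, from 0.016 to 1.24, and on the right only that of Htr3a, from 0.22 to 1.29; neither gene passed the adjusted threshold.

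Non-neuronal markers were set beside these values. Of the 7 Schwann cell and myelin markers tested, all 7 had a higher fitted mean in TG and 4 had an unadjusted p below 0.05, with summed levels of 867 to 1371 FPKM in DRG and 1317 to 1906 FPKM in TG. The examples with the smallest p were Ncmap (difference -1.21), Mbp (-0.74), Prx (-0.63) and Pmp22 (-0.48). For satellite glia markers 7 of 10 had a higher fitted mean in DRG, with a median difference of 0.16, and the 1 with an unadjusted p below 0.05 was Apoe, the most abundant, which had its higher mean in TG (2248 ± 1216 FPKM in DRG, 3914 ± 703 FPKM in TG, difference -1.04). None of these markers was called by limma, and their part in the receptor values was not tested. Of 6 markers of mast cells, which hold serotonin in rodents, Fcer1a, Tpsb2 and Mcpt4 were listed at 0 in all 10 libraries and only Kit, which sensory neurons also express, was detected. A listed 0 need not mean that the transcript is absent: Adcy3, an adenylyl cyclase, was also listed at 0 in all 10 libraries, and its authors' means in the earlier study of DRG were 6.58 FPKM in dissociated cells and 2.83 FPKM in sorted neurons.

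Spread between libraries was larger in DRG. The median coefficient of variation of the detected receptors was 0.489 in DRG and 0.294 in TG, with 7 of 9 higher in DRG, beside 0.426 and 0.220 over all detected genes. The exceptions were Htr1f (0.361 in DRG, 0.540 in TG) and Htr2a (0.641 and 0.650).

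Males and females were compared in the same fit. Htr3a had the higher mean in males and Htr1d in females, and neither passed the test across all genes. Htr3a averaged 124 ± 45.8 FPKM in males and 70.5 ± 15.0 FPKM in females (SD, n = 5 libraries each). Same-numbered DRG and TG libraries, taken as pairs, are of the same sex, so these libraries may not be independent. The tests of sex treated them as independent, and their p-values can be too small. Of the 9 receptors, 0 were called by limma, beside 0.0237% of all genes, and 1, Htr3a, had an unadjusted p below 0.05, beside 4.1% of all genes. The difference of Htr3a was 0.76 (95% interval 0.22 to 1.29), with adjusted p = 0.816 by limma and p = 0.0159 by the two-sided exact permutation test of sex labels. In TG both male libraries were above both female ones, and in DRG 2 of 3 male libraries were above all female ones. Without male DRG replicate 3 the difference was 0.57.

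Htr1d averaged 18.5 ± 9.88 FPKM in males and 29.6 ± 6.07 FPKM in females. Its difference was -0.89 (-1.87 to 0.096; limma adjusted p = 0.816; exact permutation p = 0.0635). Without male DRG replicate 3 it shrank to -0.39. For the other 7 receptors the differences lay between -0.51 (Htr1a; -0.27 without male DRG replicate 3) and 0.14 (Htr7). The libraries of the sexes overlapped for all 9, beside 0.791% of all genes that did not. In the test of whether the ganglia differed by other amounts in the sexes, 0 of 9 receptors and 0% of all genes were called by limma. At an unadjusted p below 0.05 there were 0 of 9, beside 1.17% of all genes. Htr1f had the largest such difference, 0.90 (-0.27 to 2.06; limma adjusted p = 0.9999).

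Pairs of receptors were followed across the 10 libraries. Htr3a and Htr3b, whose products join in a channel, showed no correlation that passed the threshold: Pearson's r was 0.11 (permutation p = 0.76, adjusted over the 4 pairs 0.902) and Spearman's rho 0.19 (p = 0.606, adjusted 0.807), and in the 6 DRG libraries r was 0.00077 (exact permutation p = 0.999). Without the 2 libraries farthest from the median of Htr3a, r was -0.41 (exact permutation p = 0.343). Among the triptan targets, Htr1b and Htr1f gave r = 0.50 (permutation p = 0.137, adjusted 0.547) and rho = 0.35 (p = 0.327, adjusted 0.655). Htr1b and Htr1d gave r = 0.33 (permutation p = 0.355, adjusted 0.71) and rho = 0.37 (p = 0.295, adjusted 0.655). Htr1d and Htr1f gave r = 0.040 (permutation p = 0.902, adjusted 0.902) and rho = -0.042 (p = 0.917, adjusted 0.917). Without the 2 farthest libraries these became 0.63, 0.61 and -0.093, with exact permutation p of 0.0936, 0.0794 and 0.833. No pair passed the threshold, and within DRG the values of r were 0.44, 0.58 and 0.053 (exact permutation p = 0.374, 0.254 and 0.928).

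The 2 most abundant of these receptors tended in opposite directions across libraries. This pair, Htr3a and Htr1d, was chosen after its values were seen and is given with no test: r was -0.85 and rho -0.68 over 10 libraries, and r was -0.88 in the 6 DRG libraries. Without male DRG replicate 3, in which Htr3a was 202 FPKM and Htr1d 3.25 FPKM, r was -0.65 over 9 libraries, and without the 2 libraries farthest from the median of Htr3a it was -0.62 over 8. The points share library preparation, and the DRG library at the extreme is the one that stood furthest apart over all genes.

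**Figure D3:**
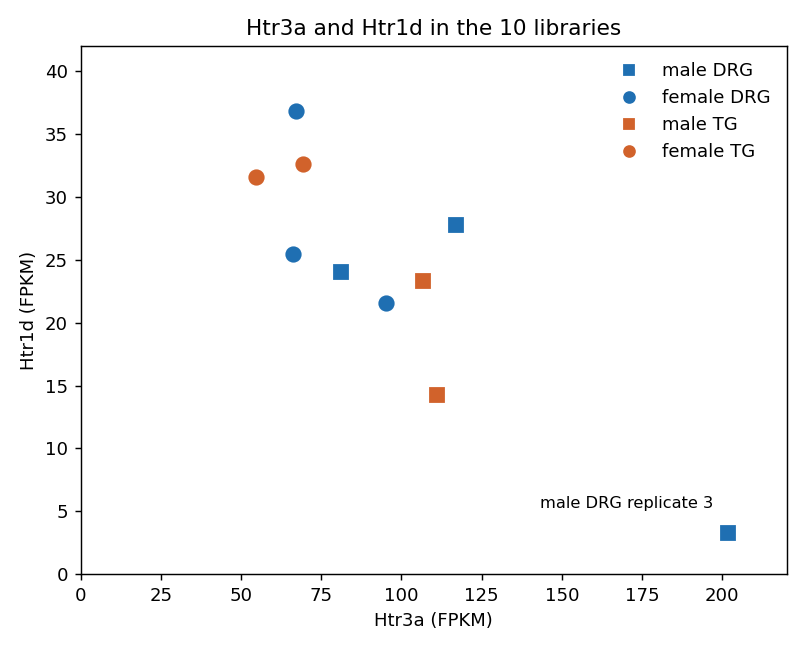
FPKM of Htr3a (horizontal) against Htr1d (vertical) in each of the 10 libraries, DRG in blue, TG in orange, males as squares and females as circles. Male DRG replicate 3 stands alone at 202 and 3.25 FPKM. The other 9 libraries tend loosely from higher Htr1d at low Htr3a to lower Htr1d at higher Htr3a. Male DRG replicate 2, at 117 and 27.8 FPKM, departs from this.

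The genes whose pattern was most like these receptors were found among the 12637 detected genes by Pearson's r over the 10 libraries, as a description. For Htr3a they were Rab13 (r = 0.93), Prelid1 (0.93) and Med4 (0.92). For Htr1d they were Sec23a (0.99), Iars (0.99) and Mief1 (0.99), a vesicle coat protein of the secretory pathway, an aminoacyl-tRNA synthetase and a mitochondrial outer membrane protein, all of them used by many cell types. Sec23a, like Htr1d, was not called between the ganglia (31.5 ± 13.2 FPKM in DRG, 32.5 ± 8.30 FPKM in TG; limma adjusted p = 0.922).

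Other genes of serotonin signalling were taken from lists of its enzymes, transporters, receptors and transducers. Of 53 listed genes 33 were tested, and 0 were called between ganglia by limma; 1 had an unadjusted p below 0.05, the fitted mean being higher in DRG for 17 genes and in TG for 16. That gene was Htr5b, a receptor gene that is functional in rodents and not in humans, at 19.2 ± 6.98 FPKM in DRG and 31.2 ± 6.62 FPKM in TG (difference -0.74; limma adjusted p = 0.765; exact permutation p = 0.0429). Its mean was above those of all the receptors described here but Htr3a and, in DRG, Htr1d, while Htr2c, Htr5a and Htr6 did not pass the detection filter.

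Of 10 genes for making, storing, taking up and breaking down serotonin, 5 were detected. Slc6a4, the serotonin transporter, was listed at 0 in all 10 libraries, with the limit on listed zeros given above. Maoa, which breaks serotonin down, was at 17.1 ± 5.78 FPKM in DRG and 20.5 ± 1.95 FPKM in TG. Tph2, the neuronal enzyme of serotonin synthesis, was at 1.39 ± 1.23 and 1.15 ± 0.718 FPKM.

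Of the transducers of these receptors, all 5 Gi/o and Gz alpha subunits were detected, led by Gnao1 (156 ± 37.1 FPKM in DRG, 158 ± 12.6 FPKM in TG). The Gs alpha gene Gnas was at 425 ± 101 and 372 ± 63.5 FPKM, and Gnaq, a Gq alpha gene, at 110 ± 46.5 and 77.8 ± 4.34 FPKM. Of 9 adenylyl cyclases 4 were detected, with summed levels of 8.75 to 19.0 FPKM in DRG and 9.35 to 13.9 FPKM in TG. Of 4 GIRK channel genes, the potassium channels that Gi/o-coupled receptors open, only Kcnj3 was detected (4.08 ± 0.996 and 3.55 ± 1.66 FPKM). S100a10, also called p11, which binds the receptors of Htr1b and Htr4, was at 1562 ± 808 FPKM in DRG and 1095 ± 336 FPKM in TG, and Ric3, a chaperone of 5-HT3 receptors, at 7.64 ± 2.19 and 7.73 ± 1.68 FPKM.

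The tables also hold the authors' mean FPKM of DRG neurons purified magnetically in an earlier study, beside dissociated DRG cells of that study. These are means with no error here, so ratios are given with no test, and a ratio past 2-fold was counted among genes with a mean of at least 1 in either. The receptors split. Lower in the sorted neurons by 2-fold or more were 5 of 9, beside 13.6% of 13549 genes, and higher by 2-fold or more were 0 of 9, beside 5.66%. The 5 were Htr7 (5.63 in dissociated cells, 0.557 in sorted neurons, a ratio of 0.099), Htr3a (52.7 and 10.6, 0.20), Htr1d (15.3 and 5.24, 0.34), Htr1b (8.17 and 3.10, 0.38) and Htr3b (9.05 and 3.57, 0.39). At 4-fold the count was 2 of 9, Htr7 and Htr3a, beside 7.35% of the genes.

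The other 4 were above 1 in ratio: Htr4 (2.54 in dissociated cells, 4.77 in sorted neurons, 1.88), Htr1f (1.99 and 3.20, 1.61), Htr1a (2.32 and 3.61, 1.56) and Htr2a (2.25 and 2.83, 1.26). The median ratio was 0.991 over all these genes, 1.25 over the 10 neuronal markers and 0.030 over the 10 satellite glia markers. The 3 most abundant of the 10 receptors in the flow-sorted libraries were thus lower after magnetic sorting, at ratios between the neuronal and glial medians. Htr5b, outside the 10 but at a mean of 24.0 FPKM over the 10 flow-sorted libraries, went the other way. Its ratio was 1.59 (2.75 in dissociated cells, 4.39 in sorted neurons). Of the 10 neuronal markers, 1 was also lower by 2-fold or more after magnetic sorting. The paper describes the magnetically sorted cells as pure DRG nociceptors. A lower ratio can thus come with loss of other neurons or of non-neuronal cells, which cannot be told apart here. In magnetically sorted neurons Htr3a was still the highest of the 10 receptors and Htr1d the next, and Htr2b was at 0 in either preparation. These tables were normalised separately from the flow-sorted libraries, so levels are not compared across them.

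**Figure D4:**
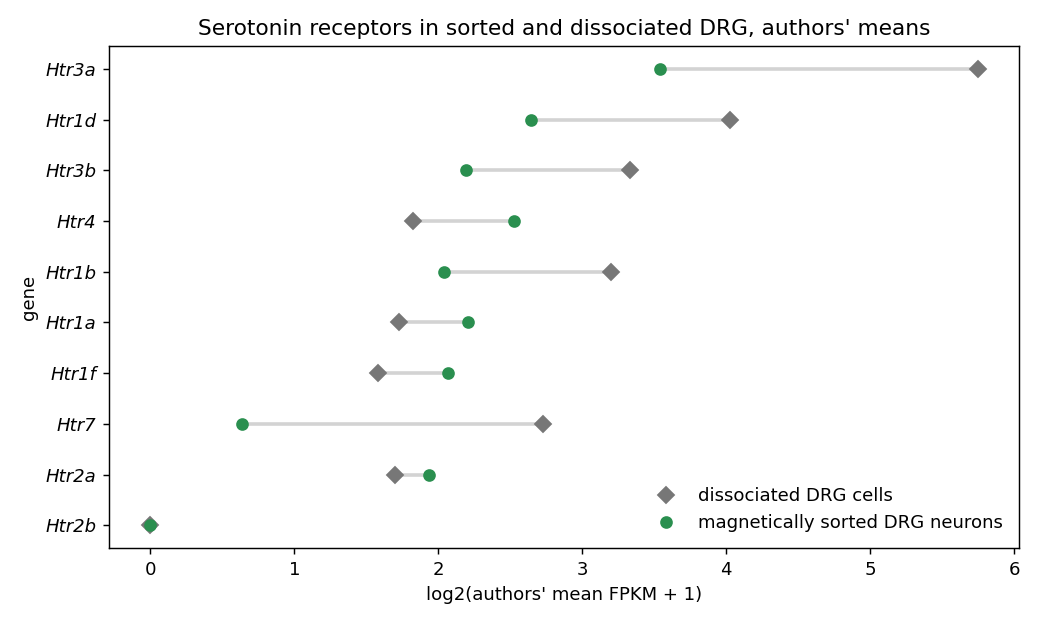
The authors' mean FPKM of each receptor in dissociated DRG cells (grey diamonds) and magnetically sorted DRG neurons (green circles) of the earlier study, as log2(mean FPKM + 1), with no error bars because only means were used. Htr3a, Htr1d, Htr3b, Htr1b and Htr7 are lower in the sorted neurons, and Htr4, Htr1a, Htr1f and Htr2a are somewhat higher.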

How the data were processed

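Neurons positive for EGFP and negative for propidium iodide were sorted, and libraries were made with a SMARTer Ultra Low Input kit. The authors aligned unique reads to mm10 with STAR and deposited FPKM from cufflinks. The fold changes and p-values of the authors' DESeq2 tests were not used, nor were 22 further per-library columns that repeat these FPKM or belong to the earlier study. The mean normalised count deposited by the authors, a signal (reads divided by size factors), is printed for Htr2b alone. Versions are not given in the sources used here. No raw counts were used, so no counting interval is given.

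Genes reaching an FPKM of 1 in 2 or more libraries of the same ganglion were compared as log2(FPKM + 1) with limma 3.58.1 (R 4.3.3; lmFit, eBayes with trend; terms ganglion and sex), adjusted by Benjamini-Hochberg over all genes tested, threshold 0.05. A fold change on this scale understates the change of low genes. Single receptors were also compared by exact permutation of libraries, and correlations by 100000 permutations or exactly. The scripts were tested on simulated data. Gene positions are from GENCODE M21. All 10 receptors were named, with up to 4 genes of each list by smallest p and the 3 genes most like Htr3a and Htr1d. The members and lists were chosen with earlier results of these data known. Numbers in the descriptions of 8 libraries were taken as pairs, because the deviations of same-numbered DRG and TG libraries correlated in 4 of 4 pairs (0.148 to 0.383). The main fits and permutation tests did not use these pairs, which entered only as a replicate block in an alternative fit. The alternatives were other pseudocounts, filters and scalings, a fit with ganglion alone, array weights, no trend, the replicate block and leaving out libraries.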

Additional observations from a re-analysis of the deposited data

Results flagged for a closer look

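Among 18 groups of libraries (9 detected receptors in 2 ganglia), 1 held a library far from the others by Dixon's test, about as many as chance gives, which is 1 in 20. It was Htr3b in DRG, where female DRG replicate 1 had 26.7 FPKM and the next highest library 15.1 FPKM. That library is among the 3 that stood apart over all genes.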

How the results depend on the processing

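No receptor was called between ganglia, between sexes or in their interaction under any setting tried, with 0 of 9 also without the 3 DRG libraries that stood apart and in the leave-one-out fits (0 to 0). With the replicate block of the description numbers the count was 0 and Htr1f differed by 0.66 (adjusted p = 0.711, against 0.929 in the same 8 libraries without it). The title numbers did not pair the libraries (correlations of -0.36 to 0.097), and with that block the count was also 0, so the block changed no call between ganglia. Sex could not be tested with a block, since it is the same within each pair. Over all genes, 14 called between ganglia became 118 with array weights and 23 without male DRG replicate 3, and 11 to 23 over single libraries left out. Between sexes 3 became 5 with array weights and 6 without the libraries that stood apart, and in the interaction 0 became at most 10, without those libraries. Mean FPKM of each receptor moved by less than 1 SD in all 108 recalculations. Leaving out a single library cannot move a mean by that much, so only the median-ratio rescaling could have shown a larger move. The number of receptors at an unadjusted p below 0.05 between ganglia, 1 of 9, ranged from 0 to 4 over the settings, and between sexes, 1 of 9, from 0 to 2. The lowest limma adjusted p of a receptor was 0.118 (Htr1a between ganglia, array weights). The count of receptors 2-fold or more lower after magnetic sorting fell from 5 to 2 at 4-fold.

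These fitted differences, none of them called, changed sign; the cause was not tested. Between ganglia, Htr1d turned from -0.32 to 0.021 in the 8 libraries with title numbers, with and without the block, and to 0.067 without the libraries that stood apart (-0.53 to 0.094 over single libraries left out). Between sexes, Htr1b turned from -0.076 to 0.023 (quantile), 0.025 (array weights), 0.0078 (8 libraries with description numbers) and 0.082 (without those apart), with a leave-one-out range of -0.17 to 0.036. Htr2a turned from -0.085 to 0.25 (title numbers) and 0.081 (without those apart), range -0.27 to 0.18. Htr3b turned from -0.084 to 0.19 (array weights), 0.26 (description numbers) and 0.11 (without those apart), range -0.24 to 0.18. Htr7 ranged from -0.0084 to 0.33. In the interaction, Htr1b turned from -0.019 to 0.039 (median ratio), 0.076 (quantile), 0.14 (array weights), 0.15 (description numbers), 0.053 (title numbers) and 0.37 (without those apart), range -0.32 to 0.28. Htr1d turned from -0.18 to 0.53 (array weights), 0.92 (title numbers) and 1.03 (without those apart), range -0.67 to 0.71. Htr3a turned from -0.094 to 0.12 (description numbers), range -0.44 to 0.21. Htr3b turned from -0.062 to 0.016 (median ratio), 0.62 (description numbers) and 0.39 (without those apart), range -0.47 to 0.42. Htr4 ranged from -0.20 to 0.61. Among the pairs, r of Htr3a and Htr3b turned from 0.11 to -0.41 without the 2 farthest libraries, range -0.15 to 0.54, and r of Htr1d and Htr1f from 0.040 to -0.093 without the 2 farthest and -0.072 (median ratio), range -0.063 to 0.30. The adjusted p of the 4 pairs was 0.187 or more for r and 0.147 or more for rho under every setting. With a pseudocount of 0.1 the same count of neighbours in the order, 3 of 9, differed beyond 1 SD.

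Depth per gene is unknown from FPKM, and the spread of 6 and 4 libraries limits the precision, most of all for Htr1d, whose fitted difference between ganglia had the largest standard error (0.461).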
